A study of Mus musculus with 24 samples.

Results

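The chromatin of 5 neighbouring CC chemokine genes on mouse chromosome 11, Ccl5, Ccl9, Ccl6, Ccl3 and Ccl4, was examined in erythroleukaemic cells with and without a hairpin RNA against Spi1. All peaks in the gene bodies or within 20 kb of either annotated end (mm10) were taken from 4 peak lists. There were 44 such peaks of 272993 on the assembled chromosomes: 7 of H3K27ac without doxycycline, 0 of H3K27ac with it, 21 of H3K4me1 without it and 16 of H3K4me1 with it. The members were chosen by values of these same lists, in particular the H3K27ac length at Ccl9, which was 6065 bp without doxycycline and 0 bp with it. The values below are therefore a description of the locus and carry no test.

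The cells are TgSpi1 erythroleukaemic cells of bone marrow origin, labelled 763 in the series, which carry a Spi1 transgene and overexpress SPI1 (PU.1), an ETS family factor of myeloid and B cells. They also carry a hairpin RNA against Spi1 that doxycycline induces, and were grown with erythropoietin. The untreated group received no doxycycline and the treated group received it for 48 h. Every sample carries the transgene and comes from cells of this 1 label, and no group is labelled as doxycycline without the hairpin, so an effect of the drug or of hairpin expression cannot be told apart from one of lower SPI1. H3K27ac marks active promoters and enhancers, and H3K4me1 marks enhancers whether active or not. Each mark has 1 list per condition. For H3K27ac a list represents replicates 1 and 2 jointly, and for H3K4me1 it represents replicate 1, so there is no replicate error, and the read depth is unknown.

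CC chemokines are small secreted proteins with adjacent cysteines that attract leukocytes through G protein-coupled receptors. CCL3, CCL4 and CCL5, the macrophage inflammatory proteins alpha and beta and RANTES, are made mainly by activated macrophages and lymphocytes. CCL3 and CCL5 act on CCR1 among other receptors, and CCL5 also on CCR3. CCL6 and CCL9 are rodent chemokines of myeloid cells that act on CCR1. Their genes lie side by side in a tight cluster, so the windows of neighbours share peaks and the 5 genes are not 5 separate observations.

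RefSeq promoter sequences (GRCm38.p6, the assembly that mm10 names) were matched for 3 of the 5 genes, and these 3 are shown. The 250 bases before the start site lie on the minus strand at chr11:83578637-83578886 for Ccl9, chr11:83593088-83593337 for Ccl6 and chr11:83649379-83649628 for Ccl3. Capitals mark GAGGAA, the core of SPI1 sites, or GGAAGTG, an ETS core with its flank, on either strand.
Ccl9: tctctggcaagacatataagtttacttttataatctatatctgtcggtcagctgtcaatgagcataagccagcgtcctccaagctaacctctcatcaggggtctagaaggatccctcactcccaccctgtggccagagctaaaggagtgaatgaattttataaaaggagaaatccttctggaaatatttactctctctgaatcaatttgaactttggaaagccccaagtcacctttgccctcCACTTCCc
Ccl6: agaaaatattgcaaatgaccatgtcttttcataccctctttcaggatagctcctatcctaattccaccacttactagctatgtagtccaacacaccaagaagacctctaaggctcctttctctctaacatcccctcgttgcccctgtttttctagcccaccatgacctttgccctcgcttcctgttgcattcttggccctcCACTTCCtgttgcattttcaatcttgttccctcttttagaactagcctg
Ccl3: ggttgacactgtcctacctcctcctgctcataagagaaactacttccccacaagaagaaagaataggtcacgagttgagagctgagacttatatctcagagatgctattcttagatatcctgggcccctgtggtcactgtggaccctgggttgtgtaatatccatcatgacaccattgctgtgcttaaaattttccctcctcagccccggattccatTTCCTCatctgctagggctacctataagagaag

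GAGGAA was found once before Ccl3, with its first printed base 33 bases before the start site, and in 23.3% of 32817 promoters of this length. GGAAGTG, chosen after the sequences had been seen, was found once before Ccl9 (8 bases before the start site) and once before Ccl6 (49 bases before it), and in 8.55% of promoters. TGANTCA, the AP-1 pattern with any middle base, occurred once before Ccl9, at 53 bases before the start site (6.75% of promoters). GATAA (22.6%), TTGCNNAA of C/EBP factors (9.57%) and GGGANNNCC, a part of the NF-kB site (15.8%), had no match in these 3 windows on either strand. A match is a run of letters and not a bound site. No H3K27ac peak of either list reached into these 250 bases at Ccl9, Ccl6 or Ccl3. Of H3K4me1, an untreated peak covered 80 bp of the Ccl3 window, and the treated list covered none of the 3 windows.

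Acetylation of the cluster lay around Ccl9. Without doxycycline, 5 H3K27ac peaks fell on or beside Ccl9 (chromosome 11, 83572917 to 83578636, minus strand) and covered 6065 bp. The widest, 3603 bp at 83569649 to 83573251, ran across the 3′ end of Ccl9, and 6.40% of the untreated H3K27ac peaks were at least that wide. Peaks of 103 bp, 1403 bp and 603 bp lay inside the gene. The one nearest the 5′ end, at 83577449 to 83578051, ended 585 bp from the start site, within the gene. The fifth, 353 bp wide, lay over Ccl16-ps, a CC chemokine pseudogene, 4016 bp from Ccl9. With doxycycline no H3K27ac peak was listed at any of these positions, and the nearest one to Ccl9 was 98516 bp from the gene body.

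**Figure D1:**
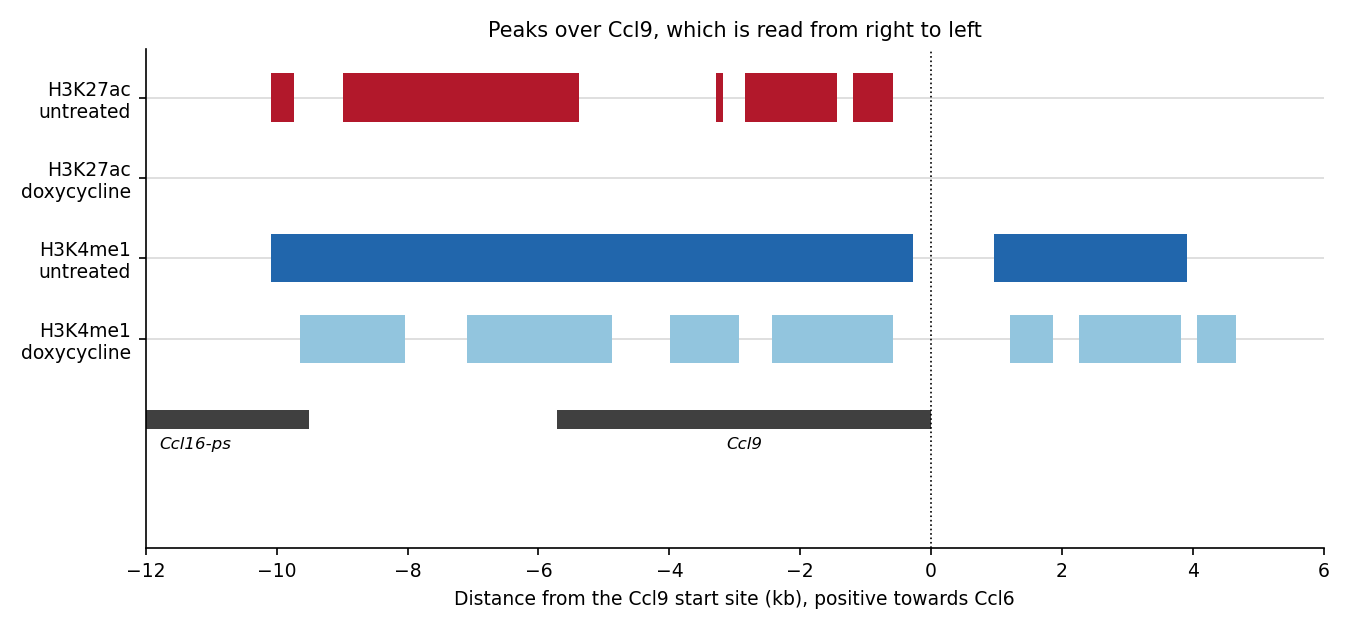
Peaks of the 4 lists around Ccl9, with the distance from its start site in kb on the x axis, 1 row per list and gene bodies in grey. The 5 untreated H3K27ac peaks lie in and downstream of the gene and have no treated counterpart, while the untreated H3K4me1 peak of 9803 bp appears as 4 treated peaks.

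H3K4me1 stayed listed at Ccl9 in both conditions. The untreated list had a single peak of 9803 bp at 83568549 to 83578351, which began at the same base as the outermost H3K27ac peak and took in all 5. By the authors' score it ranked 902 of 119362 untreated peaks. The treated list had 4 peaks inside its bounds, of 1603 bp, 2203 bp, 1053 bp and 1853 bp, parted by gaps of 947 bp, 897 bp and 497 bp. They covered 6712 bp, or 68.5% of the untreated peak. By the authors' score these 4 ranked lower in their list, at 36722, 24474, 56493 and 33026 of 101388 treated peaks in the same order. Upstream of the start site, an untreated peak of 2953 bp was overlapped by treated peaks of 653 bp and 1553 bp, and a treated peak of 603 bp at 83582699 to 83583301 had no untreated counterpart. Within the body of Ccl9 itself, H3K4me1 covered 5435 bp untreated and 3741 bp treated.

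Ccl6 (83587886 to 83593087, minus strand) had no peak of either mark in its body in any list. Its 20 kb window held the same 5 untreated H3K27ac peaks as that of Ccl9, the nearest 9835 bp from the gene and 15036 bp from its start site. Its H3K4me1 length was 14912 bp untreated and 9924 bp treated, most of it at Ccl9. The untreated H3K4me1 peak nearest to Ccl6, 753 bp at 83595749 to 83596501 and 2662 bp from the start site, had no treated counterpart. A further one, 17612 bp from the gene, was 1403 bp wide untreated and 403 bp treated. With windows of 5 kb, Ccl6 had no H3K27ac in either list, and its H3K4me1 was 753 bp and 416 bp.

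Ccl5 (83525778 to 83530518) likewise had no peak of either mark in its body. It had 2 untreated H3K27ac peaks in its window: 453 bp at 83536449 to 83536901, which is 5931 bp from the gene and inside the lncRNA gene Gm32650, and 1353 bp at 83549949 to 83551301, which is 19431 bp away. The treated list had neither. The second was the outermost H3K27ac peak within the 20 kb limit and reached past it, so that both peaks together covered 1023 bp of the window. Outside the windows of all 5 genes, the nearest untreated H3K27ac peak, of 2953 bp at the end of Taf15, lay 51227 bp from Ccl5 on the side away from Ccl9. Both H3K27ac peaks lay within untreated H3K4me1 peaks that had a narrower treated counterpart. The one at the nearer site was 5853 bp wide untreated and 4403 bp treated, and the other was 2803 bp untreated and 1253 bp treated. Narrow untreated H3K4me1 peaks of 503 bp, 803 bp and 453 bp in Gm32650 had no treated counterpart. On the far side of Ccl5, 3 H3K4me1 peaks were wider with doxycycline, at 603 bp, 603 bp and 703 bp untreated and 703 bp, 1053 bp and 903 bp treated.

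Ccl3 (83647843 to 83649378, minus strand) and Ccl4 (83648624 to 83664683 as annotated, a span that overlaps Ccl3) had no H3K27ac within 20 kb in either list. The nearest untreated H3K27ac peak was 69792 bp from Ccl3. Both genes had the same H3K4me1 length, 3768 bp untreated and 1756 bp treated. A peak on Ccl3 was 903 bp untreated and 1253 bp treated. An untreated peak of 603 bp at 83649549 to 83650151, which begins 171 bp upstream of the Ccl3 start site and lies within the annotated span of Ccl4, was not listed with doxycycline. Of the other 4 untreated peaks in this pair's windows, at 5842 to 14692 bp from Ccl3, 3 had no treated counterpart and the fourth was 803 bp untreated and 503 bp treated.

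**Figure D2:**
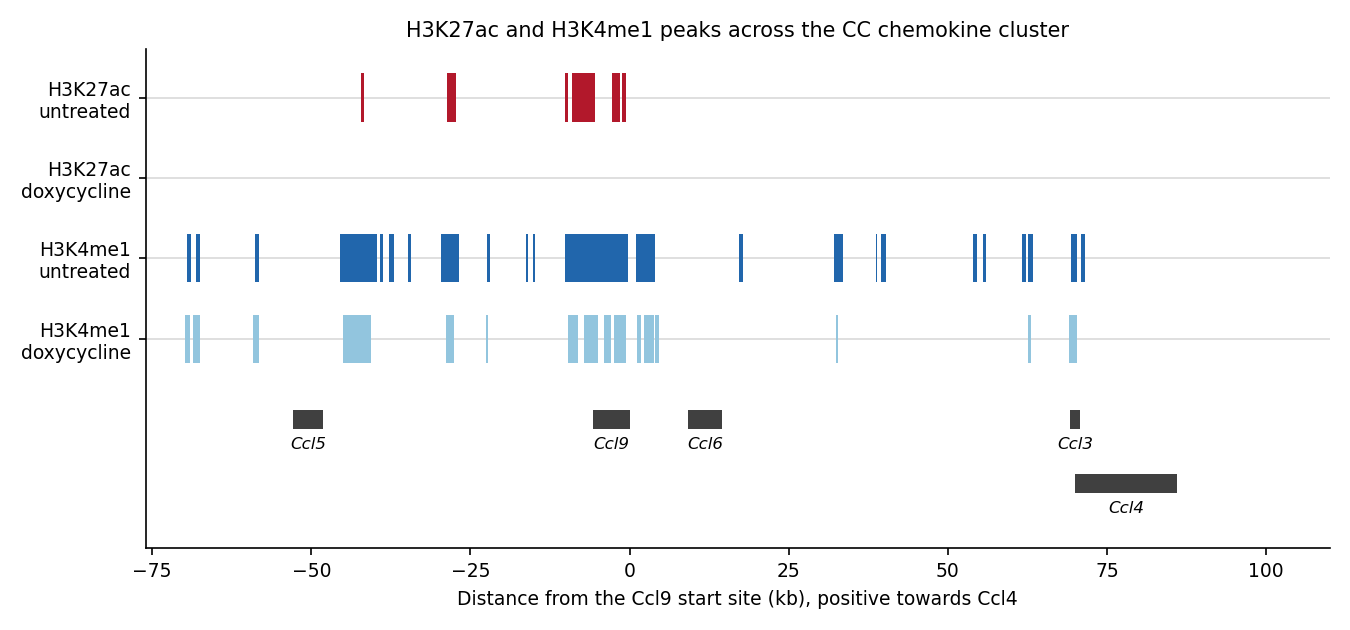
Peaks of the 4 lists across the cluster, with the distance from the Ccl9 start site in kb on the x axis and the 5 genes in grey. The 7 untreated H3K27ac peaks lie between Ccl5 and the Ccl9 start site, the treated H3K27ac row is empty, and H3K4me1 is listed in both conditions; the 2 narrow untreated H3K4me1 peaks near 40 kb lie beyond 20 kb of any member.

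Counted together, 7 of 7 untreated H3K27ac peaks of the cluster had no treated overlap of even 1 bp. Over the whole untreated list, 27.4% of peaks had none. Covered length in the windows was 7088 bp untreated and 0 bp treated. The 7 peaks formed 1 unbroken run along the chromosome, and of 4952 runs of untreated peaks without a treated counterpart, 29 had 7 or more peaks (0.586%). The cutoff of 7 was taken from this run, so the share describes the list and does not test the cluster. The widths of the 7 peaks ranged from 103 to 3603 bp with a median of 603 bp, against 1003 bp for the whole list. The H3K27ac peaks that border the cluster were present in both lists. The one at Taf15 was 2953 bp untreated and 3203 bp treated, and the one between Wfdc21 and Heatr6, 88515 bp beyond Ccl4 in the untreated list, was 1303 bp and 1453 bp. With doxycycline the 279 kb between these borders held no H3K27ac peak. Empty stretches at least that long made up 6.98% of those between consecutive treated H3K27ac peaks.

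For H3K4me1, 10 of 21 untreated peaks of the cluster had no treated overlap (26.7% in the whole list) and 1 of 16 treated peaks had no untreated overlap (20.8%). Covered length was 30980 bp untreated and 19765 bp treated, a ratio of 0.638, where the whole lists had a ratio of 1.06. Treated H3K4me1 peaks overlapped 17612 bp, or 56.8%, of the untreated H3K4me1 length of the cluster, and 80.9% of that of the whole list. The share was 61.3% around Ccl5, 58.4% around Ccl9 and Ccl6, and 37.3% around Ccl3 and Ccl4. Treated peaks added 2153 bp that the untreated list did not cover. Of the other annotated genes between Ccl5 and Ccl4, the lncRNA gene Gm32650 had 8315 bp of H3K4me1 in its body untreated and 5306 bp treated, E230016K23Rik, a lncRNA gene that spans Ccl6, 3653 bp and 1397 bp, and Gm38933 753 bp and 0 bp. The pseudogene Ccl16-ps had 580 bp and 130 bp, and Rpl9-ps1 had no peak of either mark.

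The acetylated bases of the untreated list all lay in untreated H3K4me1 peaks (7871 bp over the whole width of the 7 peaks). In the treated list 5971 of these bp, or 75.9%, were still in H3K4me1 peaks, and 6 of the 7 H3K27ac peaks still overlapped one. The exception was the 353 bp peak over Ccl16-ps. Among the 7928 untreated H3K27ac peaks of the genome with no treated overlap, 94.8% of the bp and 96.4% of the peaks lay in or overlapped treated H3K4me1.

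**Figure D3:**
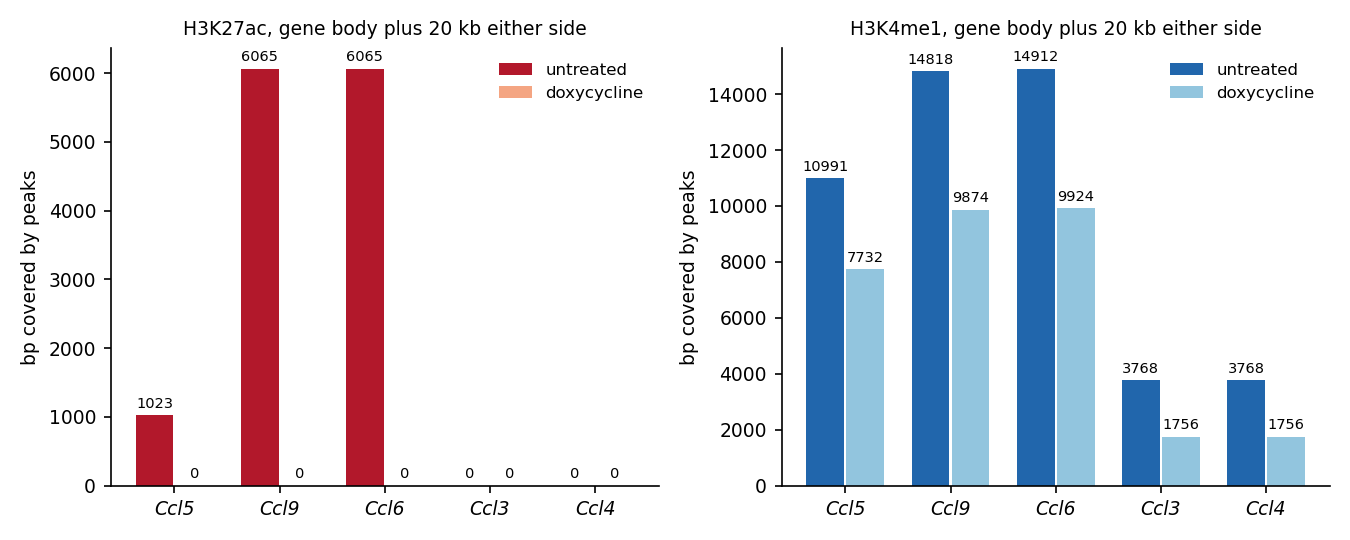
Length covered by peaks in the body plus 20 kb of each member, in bp, for H3K27ac (left) and H3K4me1 (right), untreated and with doxycycline; each bar is 1 list and has no error. H3K27ac is 0 bp at each of the 5 genes with doxycycline, and H3K4me1 is shorter at each; Ccl9 with Ccl6 and Ccl3 with Ccl4 share most or all of their peaks.

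Set among all protein-coding genes with the same windows, 3 of the 3 members that had H3K27ac in either list (Ccl5, Ccl9 and Ccl6) had untreated peaks and no treated one. So did 3.39% of the 13830 genes with H3K27ac in either list, and shares below are likewise of genes with a peak of the mark. The members were chosen by values of these lists, and Ccl6 is counted through the same peaks as Ccl9. The 3 of 3 therefore describes the locus and is no measure against that share. By a looser rule, a treated length at most 0.5 of the untreated one, the share of genes was 7.06%. In H3K4me1, 2 of 5 members passed that rule (Ccl3 and Ccl4, which share their peaks), against 5.78% of 17533 genes. H3K4me1 was shorter with doxycycline at 5 of 5 members, and at 37.9% of genes. In narrower windows this did not hold at each member: the body of Ccl3 alone had 903 bp untreated and 1059 bp treated, and the 1 kb on either side of the ends of Ccl4 had 979 bp and 1253 bp. In both windows the longer treated length came from the same peak on Ccl3. H3K27ac was shorter at the 3 members named and at 51.7% of genes. Of 4372 genes with at least the 6065 bp of untreated H3K27ac found at Ccl9, 3 had none with doxycycline: Ccl9, Ccl6 through the same peaks, and Cd48, a leukocyte surface protein gene named here after its values were seen. The cutoff is the length at Ccl9 itself, by which the members were chosen. The place of Ccl9 and Ccl6 in this count was therefore fixed in advance, and the count is no measure of rarity. The median gene with a peak of the mark differed by -50 bp in H3K27ac and by 559 bp in H3K4me1.

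**Figure D4:**
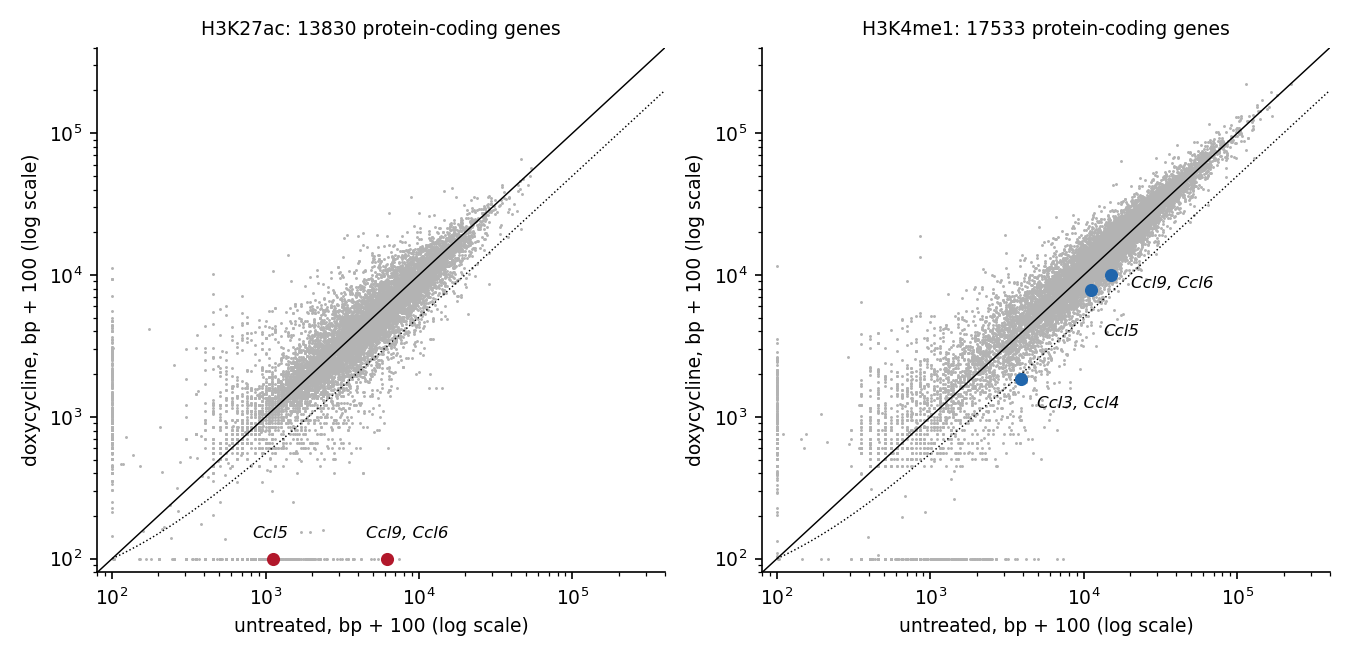
Covered length of each protein-coding gene (body plus 20 kb) without (x axis) and with doxycycline (y axis), in bp plus 100 on log axes; grey points are genes, coloured points the members with a peak, the solid line equal lengths and the dotted line a treated length of 0.5 times the untreated one. Ccl5, Ccl9 and Ccl6 sit at 0 bp of treated H3K27ac, and in H3K4me1 the pair Ccl3 and Ccl4 lies just under the dotted line.

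The genes on other chromosomes nearest to Ccl9 over its 4 covered lengths were Stk17b, an apoptosis-related kinase gene, and Alox5ap, which encodes the activating protein of 5-lipoxygenase in leukotriene synthesis. At Stk17b, H3K27ac covered 4862 bp untreated and 1453 bp treated, while H3K4me1 covered 15877 bp untreated and 9718 bp treated (Euclidean distance 2169 bp). At Alox5ap the H3K27ac lengths were 4718 bp and 1303 bp and the H3K4me1 lengths 13365 bp and 10460 bp (2443 bp). Both kept some treated H3K27ac, unlike Ccl9. The genes nearest to Ccl3 were Retnlg, with 3756 bp and 1756 bp of H3K4me1 (distance 12 bp), and Fam3b, with 3665 bp and 1759 bp (103 bp), neither with H3K27ac. These likenesses rest on 4 values per gene.

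In the gene lists that follow, the windows of body plus 20 kb take in neighbouring genes, so a length need not be the named gene's own. Ccr1, Ccl22 and Cxcl17 had no H3K27ac within 1 kb of an end in either list, while Ccr2 and Ccl25 had some in both. Of 4 receptor genes of these chemokines, all on chromosome 9, 3 had H3K27ac in both lists. It was shorter with doxycycline at 2, longer at 1 and not listed at Ccr3 (51.7% of all genes with a peak were shorter and 46.4% longer). The rule of 0.5 of the untreated length was passed by 0 (7.06% of all genes with a peak). Ccr1, the receptor of CCL6 and CCL9 among others, had 2062 bp untreated and 1306 bp treated, as did its neighbour and relative Ccr1l1. The windows of Ccr1 and Ccr1l1 overlap, so the 2 shorter genes are not separate observations. Ackr2, a scavenging receptor of inflammatory CC chemokines, had 653 bp and 903 bp. In H3K4me1, 2 were shorter and 2 longer (37.9% and 61.8% of all genes with a peak). Ccr3 had 15307 bp and 14139 bp, Ccr1 14744 bp and 13768 bp, Ccr1l1 17221 bp and 18224 bp, and Ackr2 3056 bp and 3350 bp.

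Other CC chemokine genes had little H3K27ac in either list, with none at 12 of 14. In the second CC chemokine group of chromosome 11, Ccl2, Ccl7 and Ccl11 had no H3K27ac and shared 2253 bp untreated and 2153 bp treated of H3K4me1, and Ccl1, Ccl8 and Ccl12 had no peak of either mark. Ccl22, a ligand of CCR4, had the opposite sign to Ccl9: its H3K27ac covered 0 bp untreated and 3253 bp treated, and its H3K4me1 7908 bp and 17817 bp. Its neighbour Ccl17 had 10777 bp and 21905 bp of H3K4me1. At Ccl25, H3K27ac covered 5703 bp and 3403 bp while H3K4me1 covered 22415 bp and 21359 bp. Ccl28 had 1459 bp and 353 bp of H3K4me1. Over the 14 genes, H3K4me1 was longer at 2, shorter at 7 and absent at 5, with a median difference of -50 bp (37.9% of all genes with a peak were shorter and 61.8% longer).

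Among 8 further CC receptor genes, H3K27ac was longer at 2 and shorter at 2 (46.4% and 51.7% of all genes with a peak). Ccr10 had 1956 bp and 4559 bp and Ccrl2 853 bp and 2103 bp, while Ccr2, a receptor of monocytes, had 4259 bp and 2506 bp and Ccr8 5208 bp and 5161 bp. Ccr7, which guides lymphocytes and dendritic cells to lymph nodes, had 8027 bp and 1656 bp of H3K4me1, and Ccr6 had 6315 bp and 4012 bp. H3K4me1 was shorter at 5 of the 8 and longer at 3 (37.9% and 61.8% of all genes with a peak). Ccr10 and Ccr2 had longer H3K4me1, with 18927 bp and 25477 bp and with 19916 bp and 21469 bp.

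The CXC, CX3C and XC chemokine genes mostly had longer peaks with doxycycline. Of 16 found in the table, 4 of them without a peak of either mark, H3K27ac was longer with doxycycline at 10 and shorter at 2 (46.4% of all genes with a peak were longer). The median difference over the 16 was 979.5 bp. H3K4me1 was longer at 11 and shorter at 1, with a median of 1906 bp over the 16 (61.8% of all genes with a peak were longer). All the genes with longer H3K27ac except Cx3cl1 lie on chromosome 5, in groups of neighbours near Pf4 and near Cxcl9 that share peaks. In H3K4me1 the same genes were longer, and Cxcl17 in addition. The window of Cx3cl1, on chromosome 8, overlaps those of Ccl17 and Ccl22. The genes counted are therefore not separate observations, unlike what a share over all genes would need. The platelet chemokine genes Pf4 and Ppbp had the same H3K27ac length, 7871 bp untreated and 13518 bp treated. Cxcl16, a transmembrane chemokine gene on chromosome 11, was shorter in both marks: H3K27ac covered 8475 bp and 3856 bp, and H3K4me1 20673 bp and 16131 bp. Cxcl17 had 6015 bp and 4512 bp of H3K27ac. In H3K4me1, Cx3cl1 had 14753 bp and 23009 bp, and Cxcl9 had 17158 bp and 24014 bp.

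NF-kB factors drive transcription of many chemokine genes in activated cells. All 10 genes of NF-kB factors and their inhibitors had H3K27ac in both lists, longer with doxycycline at 6 and shorter at 4 (46.4% and 51.7% of all genes with a peak). At Nfkb1, the largest difference of this list, H3K27ac covered 22445 bp and 15374 bp, and H3K4me1 60690 bp and 55578 bp. Nfkbie had 9586 bp and 9133 bp of H3K27ac, and Nfkbia 13630 bp and 12180 bp of H3K4me1. Nfkb2 had 6762 bp and 9815 bp of H3K27ac, and Tnfaip3, a feedback inhibitor, 3715 bp and 6362 bp. H3K4me1 was longer at 8 genes (61.8% of all genes with a peak), among them Nfkbib (10021 bp and 13771 bp) and Relb (19614 bp and 21918 bp).

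**Figure D5:**
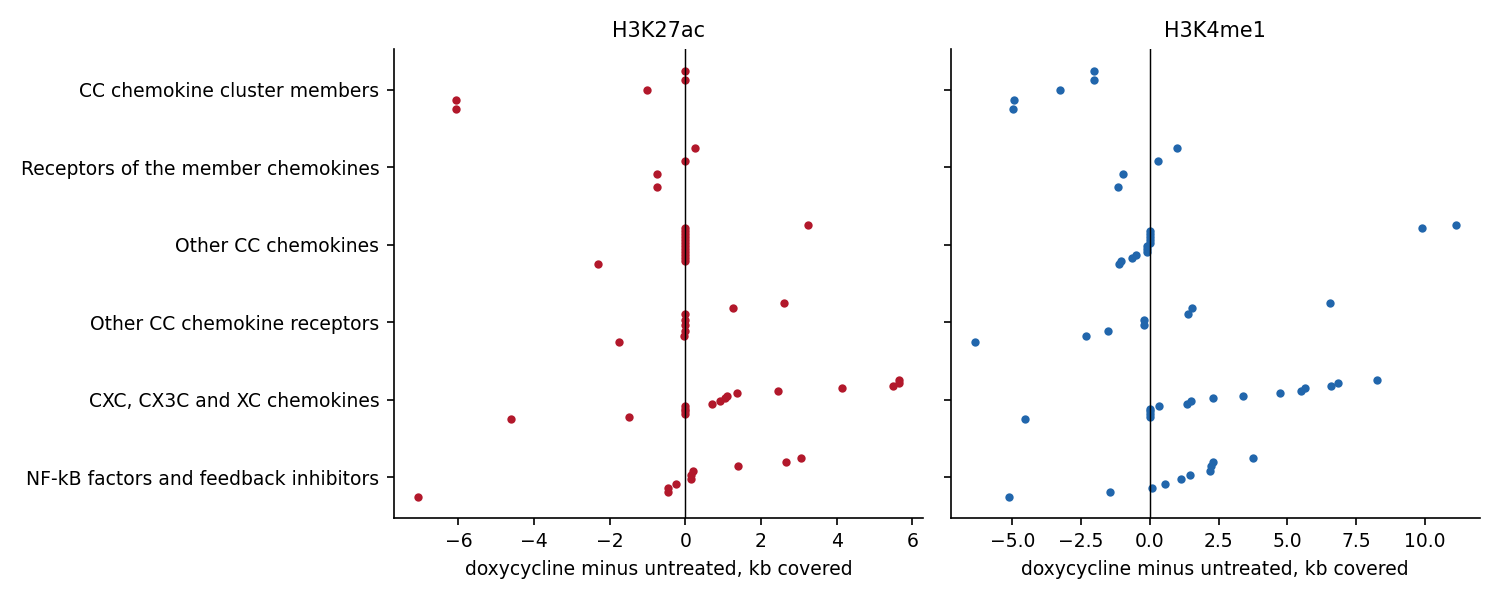
Difference in covered length, doxycycline minus untreated in kb, for each gene (point) of 6 lists, in H3K27ac (left) and H3K4me1 (right). The cluster members lie at or left of 0 in both marks, most CXC genes lie at or right of it, and most other CC chemokine genes are at 0 in H3K27ac.

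Cell type markers were measured in the same windows, which take in neighbouring genes. Within 1 kb of a gene end, H3K27ac was found at 6 of 8 erythroid markers untreated and 8 treated. Of 8 monocyte and macrophage markers it was found there at 2 in each list, and at Cd68 439 bp of the window's length lay there in each. All 8 erythroid markers had H3K27ac with doxycycline and 7 without it, where Slc4a1 had 0 bp. Summed over the list, the length was 60987 bp untreated and 75955 bp treated. Their H3K4me1 was longer with doxycycline at 8 of 8 (61.8% of all genes with a peak), with sums of 174824 bp and 234819 bp. Of 8 monocyte and macrophage markers, 4 had H3K27ac in either list, and it was shorter with doxycycline at each of these 4 (51.7% of all genes with a peak were shorter), by differences of -50 to -1822 bp, with sums of 16555 bp and 12824 bp and a range over genes of 0 to 9284 bp and 0 to 7462 bp. Adgre1, Lyz2, Mpeg1 and Irf8 had none in either list. Itgam, an integrin of myeloid cells, had 1303 bp and 0 bp. In H3K4me1, 5 of these 8 markers were shorter with doxycycline, 2 were longer and Irf8 had no peak (37.9% of all genes with a peak were shorter and 61.8% longer). Their H3K4me1 sums were 69654 bp and 57762 bp, with a range over genes of 0 to 20652 bp and 0 to 21905 bp. Itgam had 11377 bp and 3771 bp and Adgre1 3530 bp and 553 bp, while Cd68 had 20652 bp and 21905 bp and Mpeg1 4559 bp and 5112 bp. The summed length of these markers was shorter with doxycycline in both marks, as was that of the cluster, and their part in its result was not tested. H3K27ac sums for B cell markers (10771 bp and 12668 bp), T and NK cell markers (15439 bp and 15221 bp) and mast cell and basophil markers (5815 bp and 5462 bp) are given for comparison, with H3K4me1 sums of 50812 bp and 54271 bp, 58294 bp and 52640 bp, and 48708 bp and 45696 bp in the same order. The sums of the T and NK cell list and of the mast cell and basophil list were thus also shorter in both marks, and those of the B cell list were longer in both. A shorter sum was therefore not particular to the monocyte and macrophage markers, but the directions gene by gene differed between the lists. H3K27ac was longer at 3 and shorter at 1 of the T and NK cell markers (46.4% and 51.7% of all genes with a peak). It was longer at 1 and shorter at 1 of the mast cell and basophil markers. H3K4me1 was longer at 1 and shorter at 4 of the T and NK cell markers, and longer at 2 and shorter at 3 of the mast cell and basophil markers. In bulk samples, fewer cells with a mark and less of the mark per cell cannot be told apart.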

How the data were processed

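Peak lists of 4 groups were used, and the other samples of the series were not analysed here. Named in the submitters' processing notes, without a role, are the build mm10, BWA and bcl2fastq 2.17.1.14. Which peak caller was used, and how H3K27ac replicates were joined, is not given in the sources used here. Widths in bp stand in the deposited H3K27ac lists. The deposited H3K4me1 lists hold a score by the authors, of unstated scale and used only for ranks, and small values read as the authors' p-value or q-value, not used.

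Peaks on assembled chromosomes were kept, read as 1-based with both ends included. Genes came from a RefSeq table (GRCm38.p6, 21887 protein-coding genes), in which Cxcl11 had no match. A peak counted as shared if 1 bp or more of it lay in a peak of the same mark in the other condition. Python 3.11.15, numpy 2.4.6, pandas 2.3.3 and matplotlib 3.10.9 were used. The calculation was tested on simulated data, and shared peaks were checked against bedtools 2.31.1 with equal numbers. With 1 list per mark and condition, no test was run. Deeper sequencing alone can add or widen peaks, and covered length does not measure signal height.

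1 gene of the receptor list is not reported here. Members and gene lists were chosen with earlier results of these data known. Genes named were the members, genes between them, the 2 largest differences in each direction per list and mark, and the 2 genes nearest to Ccl9 and to Ccl3. Other genes in the text, namely Cd48, Ccl1, Ccl2, Ccl7, Ccl8, Ccl11 and Ccl12, bordering genes and cell type markers, were named after their values were seen. Alternatives were other windows, stricter peaks, equal peak numbers, merged peaks, scaled lengths and stricter overlaps. Gene bodies alone and the 1 kb around gene ends were added after seeing the data.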

Additional observations from a re-analysis of the deposited data

How the results depend on the processing

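H3K27ac of the cluster was 0 bp with doxycycline under each alternative run. This was fixed in advance, since the nearest treated H3K27ac peak lay 51377 bp from any member and the widest window reached 50 kb. The alternatives are therefore no test of the 0 bp. The untreated length lay between 5576 bp (the better 50% of each list) and 8429 bp (peaks within 1 kb merged). The better 50% means the wider peaks in H3K27ac, whose lists hold no score, and the higher scores in H3K4me1. The number of untreated H3K27ac peaks without a counterpart was 3 with the better 50% of each list and 4 with peaks merged, in place of 7, since both leave fewer peaks to count. In H3K4me1 the difference of -11215 bp kept its sign throughout and was -4741 bp with windows of 5 kb, which cover less ground. It was -12372 bp with treated lengths scaled to the untreated total. The count of 10 untreated H3K4me1 peaks without a counterpart was 2 with windows of 5 kb, 3 with the better 50% and 4 with peaks merged. It was 14 when an overlap of at least 50% of both peaks was asked for, with 9 treated peaks then alone in place of 1. At a treated length of at most 0.25 of the untreated one, 3.93% of genes and the same 3 members passed in H3K27ac, and 4.24% of genes and 0 members in H3K4me1. With windows of 5 kb, Ccl5 and Ccl6 had no H3K27ac in either list, so acetylation near these genes depends on the wider window. The H3K4me1 sum over the cluster kept its direction under the alternatives run, while the direction of the H3K27ac sum could not have turned. At single members, H3K4me1 turned from shorter to longer in 2 windows chosen after seeing the data: by 156 bp in the body of Ccl3 and by 274 bp within 1 kb of the ends of Ccl4. Both rest on the same peak on Ccl3, which the annotated span of Ccl4 overlaps, so they are not separate observations. No paired analysis was possible because each mark and condition has 1 list, and no replicate could be left out for the same reason. Depth is unknown and can add or widen peaks, so its share in these differences cannot be stated.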
